A study of Mus musculus with 8 samples.

Results

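The genes described here are the collagen chains, taken as every row of the deposited table whose symbol has the form Col, a number, the letter a and a number. That rule found 44 genes among the 22274 in the table, and 39 of them had enough counts to be tested. The libraries came from RFB cells, a mouse kidney line that the labels give as fibroblasts. Of the 8 libraries, 4 were from cells given TGF-β with chaetocin and 4 from cells given TGF-β alone, called the chaetocin and the TGF-β libraries below. TGF-β is a cytokine that drives matrix production in scarring tissue, and chaetocin is a fungal compound used as an inhibitor of the histone methyltransferase SUV39H1 that also acts on redox enzymes. Because every library received TGF-β, no value below describes TGF-β itself. The labels name neither a dose nor a time. Knockdown of SUV39H1 appears in the series' design text but in none of the 8 labels. Separate cultures are not stated either, so every p-value measures the spread between libraries, and that spread may be technical.

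Collagens are secreted or membrane proteins built from chains wound into a triple helix, and the chains a cell makes decide which helices it can assemble. Fibrillar collagens form the cables of interstitial scar. Type IV collagens form the sheet of the basement membrane, to which kidney tubules and the glomerular filter are anchored. The remaining classes link these structures or sit in the cell membrane. In kidney fibrosis, TGF-β signalling through SMAD proteins raises transcription of many fibrillar and type IV chains.

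Most of the highly expressed collagen chains were lower with chaetocin. Called at an adjusted p under 0.05 in edgeR's quasi-likelihood test, 18 chains were lower, 14 were higher and 7 were not called, a call being made for 80.7% of all tested genes. The lower ones were 46.2% of the 39 tested, where 38.8% of all 14608 tested genes were called lower. The higher ones were 35.9%, where 42.0% of all tested genes were called higher. Both shares were within 10 percentage points of the background. The direction of the chains went with their level. Of the 18 chains whose mean log2 CPM reached 3 (CPM are counts scaled to library depth, here by TMM), 17 were lower and 0 were higher, and the remaining one, Col18a1, was not called. At that level 49.5% of all tested genes were lower and 33.1% were higher. Of the 21 tested chains below it, 1 was lower (Col3a1), 14 were higher and 6 were not called, where 15.9% of all tested genes under that level were lower and 60.8% higher. This split by level was chosen after the values were seen. The median log2 fold change of the tested chains was -0.15, against 0.02 over all tested genes.

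A fall of at least 2-fold was also frequent among the chains. It was met by 8 chains, 20.5% of those tested, and by 4.88% of all tested genes. A rise of at least 2-fold was met by 14 chains, 35.9% of those tested, and by 19.7% of all tested genes. All 8 chains of the first kind had a mean log2 CPM of at least 3 and all 14 of the second were below it. The shares of all tested genes were not taken by level here. Of the 14 higher chains, 9 passed the count filter only through the chaetocin libraries, as did 1 uncalled chain, Col23a1, so these could be tested only because they were counted with chaetocin. The 9 were Col6a5, Col6a6, Col10a1, Col17a1, Col19a1, Col22a1, Col24a1, Col25a1 and Col28a1. Of the 29 that passed on the TGF-β libraries alone, 18 were lower, 5 higher and 6 not called. The 4 chaetocin values and the 4 TGF-β values did not overlap for 17 of the lower chains (43.6% of the tested chains, against 35.7% of all tested genes) and for 14 of the higher ones (35.9%, against 39.0%).

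**Figure D1:**
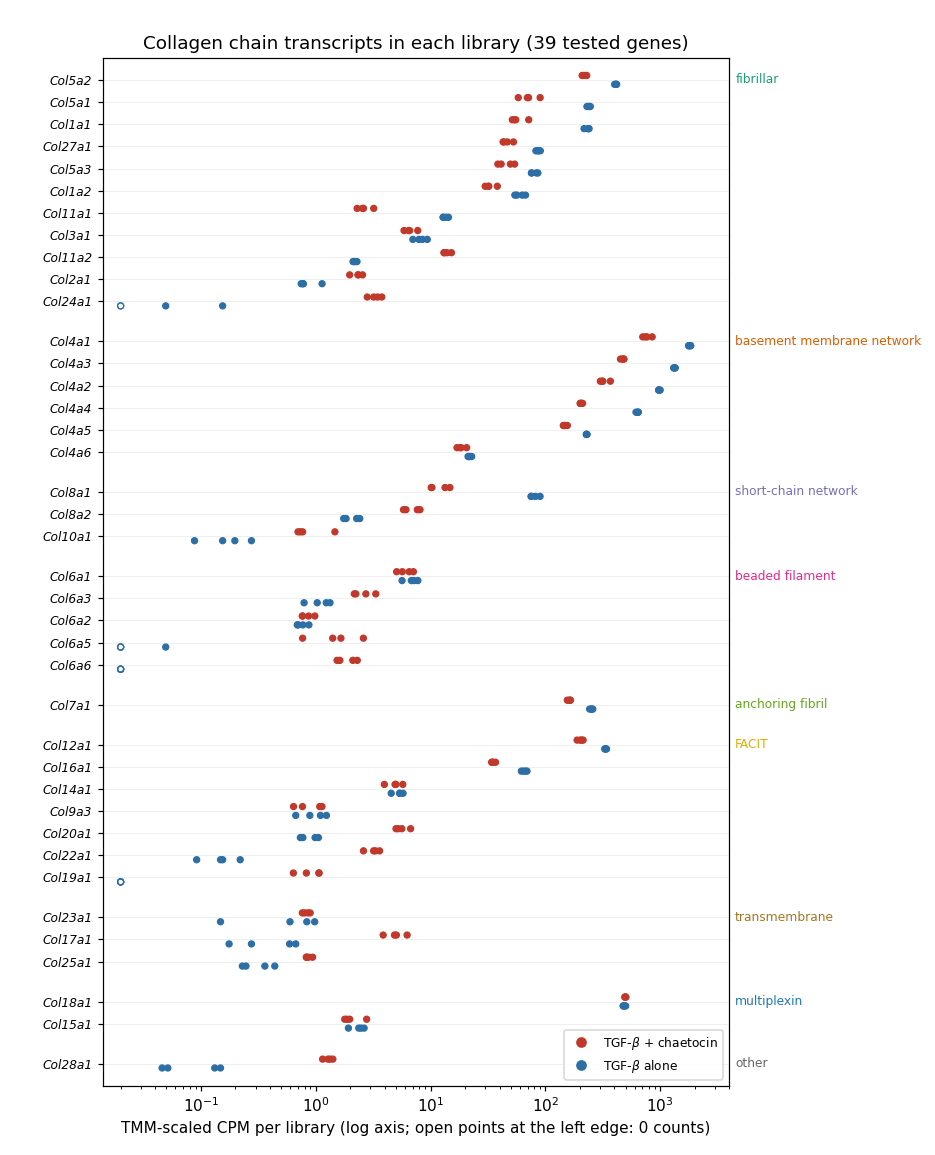
TMM-scaled CPM of the 39 tested collagen chain genes in each of the 8 libraries on a log axis, red for TGF-β with chaetocin and blue for TGF-β alone, grouped by class of collagen; open points at the left edge stand for 0 counts. The red points lie left of the blue ones for the chains at the top of the fibrillar group and for all 6 type IV chains, and right of them for low chains such as Col24a1 and Col6a6.

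Total counts were 14421225 to 22591935 in the chaetocin libraries and 20135312 to 23664084 in the TGF-β libraries, so 3 counts stood for 0.133 to 0.208 CPM with chaetocin and 0.127 to 0.149 CPM with TGF-β alone. Collagen chains took 0.341% to 0.374% of the counts with chaetocin and 0.700% to 0.718% with TGF-β alone. In bulk libraries, fewer cells of a type and less RNA per cell cannot be told apart. The label fibroblast was checked against markers. Among fibroblast markers Vim and Fn1 were high. Fbn1 had 42.3 to 48.4 CPM with chaetocin and 111 to 115 CPM with TGF-β alone. Ddr2 had 30.5 to 37.4 CPM with chaetocin and 2.07 to 3.09 CPM with TGF-β alone. However, Lum had 0.200 to 0.446 CPM with chaetocin and 0 to 0.0494 CPM with TGF-β alone. The fibroblast gene Dcn reached at most 2.81 CPM with chaetocin and 0.176 CPM with TGF-β alone, and Pdgfra at most 4.40 CPM with chaetocin and 3.81 CPM with TGF-β alone. The epithelial adhesion genes Cdh1 (597.1 to 643.9 CPM with chaetocin, 641.1 to 660.0 CPM with TGF-β alone) and Epcam (292.7 to 307.8 CPM with chaetocin, 275.2 to 291.5 CPM with TGF-β alone) were well expressed, which goes in part against the label. Krt8, Krt18, Krt19, Cldn4, Cdh16, Pax8 and Lrp2, also of the tubule list, were well expressed too. Lrp2, the lowest of these, had 38.2 to 44.4 CPM with chaetocin and 64.5 to 70.1 CPM with TGF-β alone. Near 0 in all libraries were Umod (at most 0.836 CPM), Slc34a1 (at most 0.133 CPM) and Aqp2 (at most 0.0667 CPM). With markers pointing both ways, the cells are called RFB cells below. The summed level of the fibroblast list was 16356 to 17574.5 CPM with chaetocin and 36380.0 to 38182 CPM with TGF-β alone, most of it Fn1, with 4 of 9 tested genes lower and 2 higher. Myofibroblast markers summed to 2371 to 2726 CPM with chaetocin and 2512 to 2571 CPM with TGF-β alone (3 of 7 lower, 2 higher), and macrophage markers to 154.7 to 187.6 CPM with chaetocin and 255.7 to 295.9 CPM with TGF-β alone (5 of 8 lower, 3 higher, Cd3e at 0 with TGF-β alone).

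The promoters of 4 chains that the results turn on are printed here, for a chain of each autosomal type IV pair, for the chain with the largest fall and for the most abundant of the chains that rose. Each window runs from 250 bases before to 50 bases after the RefSeq start on build GRCm38.p6, 5′ to 3′ on the gene's strand. Capitals mark GGGCGG or its complement CCGCCC (the GC box), CCAAT (the CCAAT box) and TATAAA (the TATA box), each searched on both strands. Col4a2 lies on the plus strand at chr8:11312555-11312854, Col4a4 on the minus strand at chr1:82586800-82587099, Col8a1 on the minus strand at chr16:57754688-57754987 and Col11a2 on the plus strand at chr17:34038888-34039187.
Col4a2: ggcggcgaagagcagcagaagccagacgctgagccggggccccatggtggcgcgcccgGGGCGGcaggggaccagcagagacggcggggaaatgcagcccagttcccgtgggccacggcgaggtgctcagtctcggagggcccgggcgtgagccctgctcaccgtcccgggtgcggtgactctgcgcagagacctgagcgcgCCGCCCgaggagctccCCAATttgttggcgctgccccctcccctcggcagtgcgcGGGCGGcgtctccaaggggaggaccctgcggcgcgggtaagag
Col4a4: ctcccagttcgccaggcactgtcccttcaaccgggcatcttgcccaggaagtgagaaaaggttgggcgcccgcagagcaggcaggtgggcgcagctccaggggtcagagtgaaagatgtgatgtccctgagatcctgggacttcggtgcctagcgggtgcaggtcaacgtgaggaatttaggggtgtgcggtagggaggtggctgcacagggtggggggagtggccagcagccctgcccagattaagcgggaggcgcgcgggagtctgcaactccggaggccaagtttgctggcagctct
Col8a1: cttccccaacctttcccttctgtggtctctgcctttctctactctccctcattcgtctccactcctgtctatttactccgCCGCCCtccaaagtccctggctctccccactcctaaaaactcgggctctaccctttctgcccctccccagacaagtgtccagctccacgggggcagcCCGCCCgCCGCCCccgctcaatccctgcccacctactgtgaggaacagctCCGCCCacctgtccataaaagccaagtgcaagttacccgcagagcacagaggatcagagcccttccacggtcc
Col11a2: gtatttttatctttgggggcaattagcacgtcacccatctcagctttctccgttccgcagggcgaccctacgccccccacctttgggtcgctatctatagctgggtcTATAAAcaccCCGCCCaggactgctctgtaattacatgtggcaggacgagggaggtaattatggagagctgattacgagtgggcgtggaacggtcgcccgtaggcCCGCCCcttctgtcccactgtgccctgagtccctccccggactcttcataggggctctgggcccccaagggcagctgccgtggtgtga

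Of the 4 windows, those of Col4a2 and Col8a1, chains that were lower with chaetocin, hold 3 GC boxes with a CCAAT box (Col4a2) and 4 GC boxes (Col8a1), and Col11a2, a chain that was higher, holds 2 with a TATA box. Col4a4 was lower too and holds none of the 3 motifs. RefSeq windows were matched for 35 of the 44 chains by symbol, 38 windows in all. A GC box was in 60.5% of these and in 35.7% of the 32851 windows of all genes. The CCAAT box was in 34.2% against 37.4%, and the TATA box in 13.2% against 13.6%. Median CpG content was 11.5 per window for the collagen windows and 7 over all. Windows were matched for 14 lower chains, which held a median of 13.5 CpG (0 to 37), and 12 of them had a GC box. For 12 higher chains the median was 8 CpG (0 to 32), and 5 had a GC box. The palindromic SMAD element GTCTAGAC was in 0 collagen windows and 0.213% of all. The AP-1 site TGANTCA was in 2.63% and 7.81%. A match is a description of letters in this window.

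Among the fibrillar chains, 8 of 11 were lower (72.7%, where 38.8% of all tested genes were) and 3 were higher (27.3%, against 42.0% of all tested genes) with chaetocin. The chains that dominate interstitial collagen fell, and those best known from cartilage moved in both directions. Col1a1 (chr11:94936224-94953042), the α1 chain of type I collagen and the main component of scar, had 55.2, 51.6, 71.6 and 53.8 CPM with chaetocin, against 217, 237, 240.3 and 237 CPM with TGF-β alone. Its groups did not overlap, and the log2 change was -2.01 ± 0.06 (SE, adjusted p = 2.0e-22), a 4.03-fold fall. Col1a2, its α2 partner, had 32.2, 29.9, 38.2 and 31.9 CPM with chaetocin, against 54.2, 62.9, 56.5 and 67.2 CPM with TGF-β alone. This was the smaller fall within type I, -0.87 ± 0.06 (SE, adjusted p = 1.0e-12). Col3a1, the chain of type III collagen that is laid down with type I, had 6.58, 5.88, 7.74 and 6.44 CPM with chaetocin, against 9.37, 8.505, 7.01 and 7.92 CPM with TGF-β alone. Here the groups overlapped, and the log2 change was -0.30 ± 0.11 (SE, adjusted p = 0.0155). That call was lost with total-count scaling (-0.19, adjusted p = 0.122), without TGF-β replicate 1 (-0.24, adjusted p = 0.0640), without chaetocin replicate 2 (-0.26, adjusted p = 0.0532) and in fits on FPKM (fragments scaled to gene length and depth), which gave -0.01.

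Type V chains start the fibrils on which type I collagen grows. Col5a1 had 71.4, 58.1, 90.04 and 69.6 CPM with chaetocin, against 230.3, 238, 242 and 246 CPM with TGF-β alone. Every chaetocin library was below every TGF-β library, with a log2 change of -1.73 ± 0.06 (SE, adjusted p = 5.5e-20). Col5a2 had 224, 216, 229 and 209 CPM with chaetocin, against 412, 401, 411 and 418 CPM with TGF-β alone. Its groups were apart too, at -0.90 ± 0.03 (SE, adjusted p = 1.3e-21). Col5a3 had 38.6, 41.2, 54.03 and 49.6 CPM with chaetocin, against 75.8, 83.6, 75.7 and 86.1 CPM with TGF-β alone. No library crossed over, and the log2 change was -0.82 ± 0.07 (SE, adjusted p = 6.7e-12). Col27a1, a fibrillar chain with interruptions in its helix, had 43.7, 46.7, 52.8 and 42.9 CPM with chaetocin, against 82.7, 90.4, 86.98 and 86.02 CPM with TGF-β alone. On the log2 scale the change was -0.90 ± 0.05 (SE, adjusted p = 5.5e-16).

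Type XI chains limit fibril width in cartilage and type II collagen is its main fibril. Col11a1 had 2.61, 2.56, 3.201 and 2.296 CPM with chaetocin, against 14.3, 12.9, 13.6 and 12.9 CPM with TGF-β alone, a separation wider than the spread within either group, at -2.34 ± 0.11 (SE, adjusted p = 9.0e-17). The other type XI chain moved the opposite way. Col11a2 had 15.2, 13.2, 13.9 and 13.1 CPM with chaetocin, against 2.16, 2.11, 2.22 and 2.29 CPM with TGF-β alone, and its log2 fold change was 2.66 ± 0.11 (SE, adjusted p = 4.4e-18). On the log2(FPKM + 1) scale, which understates changes of low genes, the values were -0.85 for Col11a1 and 1.36 for Col11a2. Col2a1 had 2.35, 2.56, 2.33 and 1.98 CPM with chaetocin, against 0.781, 0.773, 1.14 and 0.748 CPM with TGF-β alone, without overlap, and a log2 change of 1.42 ± 0.22 (SE, adjusted p = 1.7e-06). Col24a1, a fibrillar chain of developing bone, had 3.46, 2.81, 3.201 and 3.76 CPM with chaetocin, against 0, 0.155, 0.0494 and 0 CPM with TGF-β alone. That is 232 counts with chaetocin against 4 with TGF-β alone, or 69.99-fold (counting interval 26.97 to 259.04). Of the 4 counts, 3 were in TGF-β replicate 2, and the fitted log2 fold change was 5.94 with that library and 7.23 without it. Markers of chondrocytes summed to 39.05 to 46.1 CPM with chaetocin and 65.3 to 67.3 CPM with TGF-β alone, a sum that is mostly Sox9, which was lower (34.5 ± 2.69 CPM with chaetocin and 66.02 ± 0.978 CPM with TGF-β alone, SD, n = 4 each). The cartilage matrix genes of that list that were tested, Acan and Comp, were higher. Acan, the core protein of aggrecan, had 4.96, 4.92, 5.202 and 5.61 CPM with chaetocin, against 0.184, 0.0515, 0.0494 and 0 CPM with TGF-β alone, or 359 counts with chaetocin against 6 with TGF-β alone, a ratio of 72.2 (counting interval 32.8 to 198.1), and its fitted log2 change was 6.05 with all libraries and 7.06 without TGF-β replicate 1. Comp, a cartilage glycoprotein that binds collagen, had 1.07, 1.79, 1.47 and 1.79 CPM with chaetocin, against 0.0459, 0.0515, 0.247 and 0.264 CPM with TGF-β alone, a ratio of 9.56 (5.35 to 18.6). Both were called higher and passed the count filter only through the chaetocin libraries. Matn1, Hapln1 and Cnmd were each under 1 CPM in all libraries and were not tested. The part of chondrocyte markers in the type II and XI values was not tested.

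All 6 type IV chains, the network of the basement membrane, were lower with chaetocin, where 38.8% of all tested genes were. Each had a mean log2 CPM of at least 3, a level at which 49.5% of all tested genes were lower. The 6 chains lie in 3 head-to-head pairs in the genome. Col4a1 (chr8:11198423-11312826, minus strand) and Col4a2 (chr8:11312805-11449287, plus strand) have starts 21 bases apart, and their exons share 22 bases. These chains form the trimer found in nearly all basement membranes. Col4a1 had 769, 705, 851 and 743 CPM with chaetocin, against 1774, 1768, 1845 and 1835 CPM with TGF-β alone. Its groups were far apart, with a log2 change of -1.24 ± 0.03 (SE, adjusted p = 2.8e-22). Col4a2 had 316, 301, 368 and 314 CPM with chaetocin, against 970.1, 972, 1000.4 and 983 CPM with TGF-β alone. It fell further than its neighbour, -1.60 ± 0.04 (SE, adjusted p = 3.4e-24), or 3.02-fold against 2.35-fold.

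The pair of Col4a3 (chr1:82586921-82722059, plus strand) and Col4a4 (chr1:82448423-82586849, minus strand) has starts 72 bases apart. With Col4a5, these chains make the mature glomerular basement membrane, and mutations in the human genes cause Alport syndrome. Col4a3 had 481, 483, 472 and 451 CPM with chaetocin, against 1352, 1315, 1315 and 1345 CPM with TGF-β alone. On the log2 scale the change was -1.50 ± 0.02 (SE, adjusted p = 7.2e-28). Col4a4 had 211, 206, 202 and 201 CPM with chaetocin, against 645, 616, 639.6 and 641 CPM with TGF-β alone, with no overlap and a log2 change of -1.63 ± 0.02 (SE, adjusted p = 4.0e-28). Of the exon bases of Col4a3, 5.65% are shared with a transcript on the opposite strand, C430014B12Rik. Without a stated strand setting, reads of these overlapping transcripts cannot be told apart.

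Col4a5 (chrX:141475385-141689234, plus strand) and Col4a6 (chrX:141165403-141474076, minus strand) are further apart, with 1309 bases between starts. Col4a5 had 155, 146, 148 and 143 CPM with chaetocin, against 231, 227, 228 and 229 CPM with TGF-β alone. Groups did not overlap, at -0.62 ± 0.03 (SE, adjusted p = 1.0e-17). Col4a6, found with Col4a5 in Bowman's capsule, had 20.6, 16.999, 18.5 and 17.98 CPM with chaetocin, against 21.2, 21.9, 21.7 and 22.8 CPM with TGF-β alone. Its fall was the smallest of the 6, -0.23 ± 0.06 (SE, adjusted p = 0.001701), and the groups were separate by a narrow margin. The call was lost with total-count scaling (-0.12, adjusted p = 0.0908) and in the FPKM fits.

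**Figure D2:**
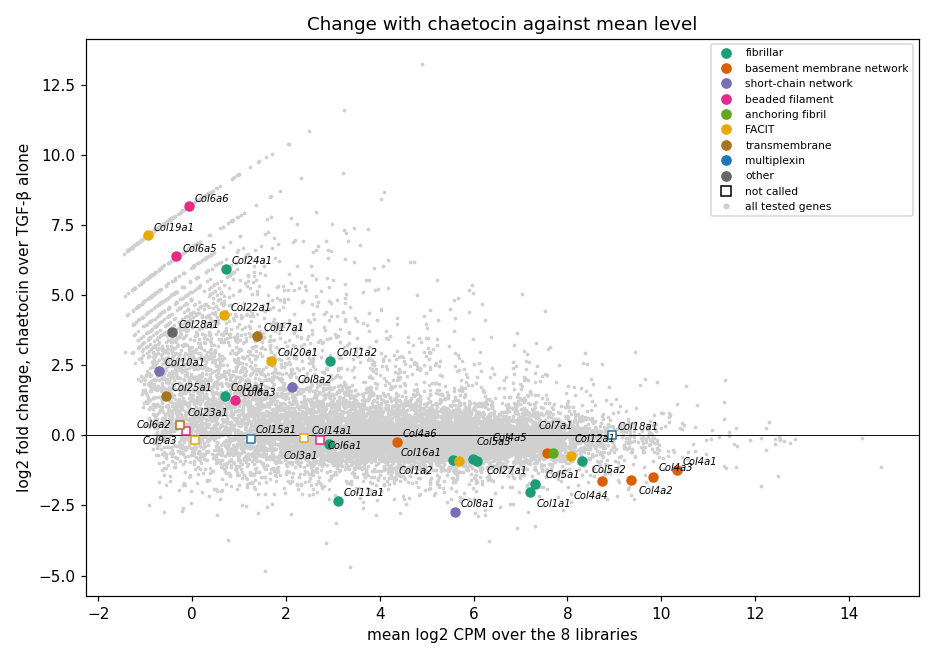
Log2 fold change of chaetocin over TGF-β alone (vertical axis) against mean log2 CPM over the 8 libraries (horizontal axis); grey dots are all tested genes, coloured points are the 39 tested collagen chains by class, and open squares were not called. Chains whose mean log2 CPM reached 3 lie below or on 0, with Col18a1 on it, while Col6a6 and Col19a1 lie at the low-level, high-change corner.

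The short-chain collagens, which form hexagonal lattices, included the chain with the largest fall in the family. Col8a1 (chr16:57624258-57754737), produced by endothelial and smooth muscle cells in vessel remodelling, had 13.4, 10.3, 14.7 and 10.1 CPM with chaetocin, against 75.2, 75.4, 82.1 and 89.9 CPM with TGF-β alone. On the log2 scale the change was -2.72 ± 0.08 (SE, adjusted p = 3.5e-22), a 6.60-fold fall with no overlap. Its partner Col8a2 moved the other way. It had 6.11, 5.82, 7.67 and 8.099 CPM with chaetocin, against 1.84, 1.75, 2.27 and 2.42 CPM with TGF-β alone, a log2 change of 1.72 ± 0.15 (SE, adjusted p = 6.8e-11). On the log2(FPKM + 1) scale these were -2.23 for Col8a1 and 0.95 for Col8a2. Endothelial markers summed to 102.8 to 113.3 CPM with chaetocin and 53.7 to 60.9 CPM with TGF-β alone (2 of 7 lower, 5 higher), and pericyte markers to 23.8 to 38.6 CPM with chaetocin and 94.3 to 108.8 CPM with TGF-β alone (2 of 3 tested lower, 1 higher). Their part in the Col8a1 value was not tested. Col10a1, the marker of hypertrophic cartilage, had 63 counts with chaetocin and 15 with TGF-β alone, a ratio of 5.07 (counting interval 2.85 to 9.59), and was called higher.

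Beaded-filament collagen, type VI, links cells to fibrils, and of its 5 tested chains 3 were higher, 2 were not called and none was lower. All 5 had a mean log2 CPM under 3, and the 60% that were higher compare with 60.8% of all tested genes at that level. Col6a5 and Col6a6, both among the higher chains, passed the count filter only through the chaetocin libraries. The core chains Col6a1 and Col6a2 overlapped between groups. Col6a1 had 7.09, 6.52, 5.07 and 5.68 CPM with chaetocin, against 5.65, 6.804, 7.75 and 7.17 CPM with TGF-β alone, with a log2 change of -0.15 ± 0.12 (SE, adjusted p = 0.263). Col6a2 had 0.983, 0.767, 0.867 and 0.765 CPM with chaetocin, against 0.873, 0.773, 0.691 and 0.704 CPM with TGF-β alone, with a log2 change of 0.17 ± 0.27 (SE, adjusted p = 0.568). Col6a3, the long chain of the common type VI trimer, had 2.73, 2.24, 3.33 and 2.17 CPM with chaetocin, against 1.33, 1.03, 1.23 and 0.792 CPM with TGF-β alone. Its groups were apart, with a log2 change of 1.25 ± 0.22 (SE, adjusted p = 8.3e-06). In the unfiltered FPKM fit its call was lost (0.17, adjusted p = 0.359). The related chains Col6a4, Col6a5 and Col6a6 lie in a row on the minus strand of chromosome 9, 28810 bases (Col6a4 to Col6a5) and 27917 bases (Col6a5 to Col6a6) apart. Col6a5 had 0.769, 1.41, 2.601 and 1.66 CPM with chaetocin, against 0, 0, 0.0494 and 0 CPM with TGF-β alone. These were 105 counts with chaetocin and 1 count with TGF-β alone, a ratio of 127 (22.3 to 5052), and the single count was in TGF-β replicate 3. Without that library the fitted log2 fold change of Col6a5 was 7.89, against 6.40 with it. Col6a6 had 1.62, 2.301, 1.53 and 2.104 CPM with chaetocin, against 0, 0, 0 and 0 CPM with TGF-β alone. No TGF-β library held a read, and the 130 counts with chaetocin put it at least 52.3-fold higher if the floor is taken as 3 counts over the group. Col6a4 was too low to be tested, at 38 counts with chaetocin against 3 with TGF-β alone, a ratio of 15.3 (4.85 to 77.4).

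Col7a1, the chain of the anchoring fibrils that fix epithelium to the dermis or stroma, had 164, 161, 165 and 155 CPM with chaetocin, against 253, 243, 259 and 252 CPM with TGF-β alone. On the log2 scale the change was -0.64 ± 0.03 (SE, adjusted p = 6.4e-18), with no overlap. FACIT collagens, which coat the surface of fibrils, were split: of 7 tested, 2 were lower (28.6%, against 38.8% of all tested genes), 3 higher (42.9%, against 42.0%) and 2 not called. Col12a1, a FACIT that bridges fibrils in tissues under load, had 201, 189, 213 and 207 CPM with chaetocin, against 341, 331, 329 and 338 CPM with TGF-β alone. Its log2 fold change was -0.73 ± 0.03 (SE, adjusted p = 1.2e-18). Col16a1 had 34.05, 34.4, 36.8 and 35.01 CPM with chaetocin, against 64.4, 61.9, 69.2 and 67.2 CPM with TGF-β alone. The groups were apart, with a log2 change of -0.91 ± 0.04 (SE, adjusted p = 1.2e-16). Col14a1 had 4.998, 3.96, 5.74 and 4.91 CPM with chaetocin, against 5.37, 5.41, 4.54 and 5.76 CPM with TGF-β alone, with overlapping groups and a log2 change of -0.11 ± 0.13 (SE, adjusted p = 0.454). Col9a3 had 0.641, 0.767, 1.13 and 1.08 CPM with chaetocin, against 1.24, 0.6701, 0.889 and 1.09998 CPM with TGF-β alone, overlapping too, at -0.15 ± 0.28 (SE, adjusted p = 0.621). These are changes that this design did not separate from the spread, which does not show that the levels were alike.

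The higher FACIT chains were all low. Col20a1 had 402 counts with chaetocin against 75 with TGF-β alone, a log2 change of 2.67 ± 0.18 (SE, adjusted p = 2.5e-13). Col22a1, found at junctions of muscle and tendon, had 217 counts with chaetocin against 13 with TGF-β alone (ratio 20.1, 11.5 to 38.4). Col19a1 had 64 counts with chaetocin and 0 with TGF-β alone, at least 25.7-fold higher at the same floor. Col9a1 (6 counts with chaetocin and 0 with TGF-β alone, at least 2.41-fold higher) and Col9a2 (14 counts with chaetocin and 5 with TGF-β alone, a ratio of 3.38, 1.15 to 11.99) were not tested. These are counts of low genes, and their intervals cover counting error only.

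The transmembrane chains were low as well. Col17a1, which anchors basal epithelial cells in hemidesmosomes, had 350 counts with chaetocin against 35 with TGF-β alone, a ratio of 12.1 (8.51 to 17.6). Col25a1, a neuronal chain, had 61 counts with chaetocin against 27 with TGF-β alone, or 2.73 (1.71 to 4.46). Both were called higher, and both passed the count filter only through the chaetocin libraries. Col23a1 had 0.854, 0.895, 0.8004 and 0.765 CPM with chaetocin, against 0.597, 0.979, 0.148 and 0.836 CPM with TGF-β alone, and the log2 change of 0.37 ± 0.35 (SE, adjusted p = 0.331) was not called. Col13a1 had 4 counts with chaetocin against 0 with TGF-β alone, at least 1.61-fold higher, and was not tested. Epithelial markers summed to 7602 to 7925 CPM with chaetocin and 4882 to 5061 CPM with TGF-β alone, with 4 of 10 tested lower and 5 higher, and Aqp2 at 0 in all TGF-β libraries. Krt8 (mean 3615 CPM with chaetocin, 1582 CPM with TGF-β alone) and Krt18 (1783 and 812 CPM) weighed heavily in that sum. The 4 lower markers were Cldn4 (810 CPM with chaetocin, 1156 CPM with TGF-β alone), Cdh1, Pax8 and Lrp2. The part of epithelial markers in the Col17a1 value was not tested. Outside these classes, Col28a1 had 91 counts with chaetocin against 8 with TGF-β alone (13.7, 6.68 to 32.8) and was called higher, and Col26a1 had 9 with chaetocin against 3 with TGF-β alone (3.62, 0.903 to 20.8) and was not tested.

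The multiplexins are basement membrane collagens whose ends can be cut off as angiogenesis inhibitors, endostatin in the case of Col18a1. Col18a1 (chr10:77052178-77166548) had 493, 503, 493 and 499 CPM with chaetocin, against 493, 476, 500.3 and 478 CPM with TGF-β alone. The groups overlapped, and the log2 change was 0.03 ± 0.02 (SE, adjusted p = 0.2204). It was called higher with total-count scaling (0.14, adjusted p = 1.7e-06) and in the FPKM fits (0.16). Col15a1 had 2.78, 1.79, 1.87 and 1.98 CPM with chaetocin, against 2.48, 2.37, 1.93 and 2.64 CPM with TGF-β alone, with overlap and a log2 change of -0.13 ± 0.19 (SE, adjusted p = 0.523). Neither multiplexin was called in the count fit.

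Levels per length, from the authors' deposited FPKM, show which chains made up the collagen transcript pool. The 44 chains summed to 586.7 ± 42.3 FPKM with chaetocin and 1143 ± 16.1 FPKM with TGF-β alone (SD, n = 4 each), with ranges of 543.1 to 643.9 FPKM with chaetocin and 1120.3 to 1156 FPKM with TGF-β alone. Type IV chains summed to 333.8 ± 32.6 FPKM with chaetocin and 773.5 ± 12.6 FPKM with TGF-β alone, and their share of the pool was 56.8% with chaetocin and 67.7% with TGF-β alone. Fibrillar chains summed to 87.5 ± 7.15 FPKM with chaetocin and 185.0 ± 6.08 FPKM with TGF-β alone. The multiplexins summed to 107.2 ± 1.59 FPKM with chaetocin and 95.6 ± 2.53 FPKM with TGF-β alone, and their share was 18.4% with chaetocin and 8.37% with TGF-β alone. By mean FPKM the highest chains with chaetocin were Col4a1 at 175.4, Col18a1 at 106.6, Col4a3 at 57.4 and Col4a2 at 52.4. With TGF-β alone they were Col4a1 at 379.7, Col4a3 at 149.6, Col4a2 at 146.2 and Col18a1 at 95.1. Col18a1 thus stood next to Col4a1 in the chaetocin libraries and below Col4a3 and Col4a2 in the TGF-β libraries. Col4a1 made up 29.7% of the pool with chaetocin and 33.2% with TGF-β alone.

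**Figure D3:**
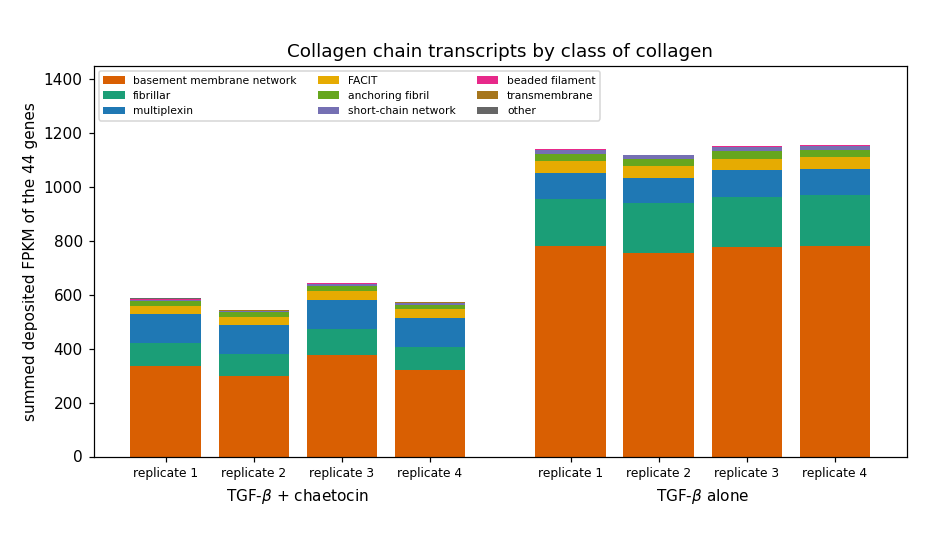
Summed deposited FPKM of the 44 collagen chain genes in each library, stacked by class of collagen, with the 4 chaetocin libraries on the left and the 4 libraries with TGF-β alone on the right. The basement membrane part, the largest, averages 333.8 FPKM on the left and 773.5 FPKM on the right.

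Partner chains changed by unequal amounts in 8 of 9 pairs compared. The 9 are a selection of chains that share a trimer or a fibril or lie head to head, made with earlier results known, and they leave out Col11a1/Col11a2 and Col4a3/Col4a4, which are described below without a test. For the 9 pairs, the log2 ratio of their CPM was taken in each library and compared by an exact two-sided permutation test, for which 0.0286 is the smallest p that 4 libraries against 4 can give. After adjustment over the 9 pairs, the exact p was 0.0321 for 8 of them and 0.171 for Col6a1/Col6a2. No share over other pairs of genes was taken, and 80.7% of all tested genes were called singly. The 8 of 9 is therefore not shown to be particular to partner chains. The log2 ratio of Col1a1 to Col1a2 averaged 0.81 ± 0.07 with chaetocin and 1.96 ± 0.12 with TGF-β alone, a difference of -1.15. On FPKM, which is per length, that ratio was 1.56 with chaetocin and 3.50 with TGF-β alone. Col3a1 to Col1a1 averaged -3.12 ± 0.07 with chaetocin and -4.83 ± 0.23 with TGF-β alone, a difference of 1.72. The ratio of Col5a1 to Col5a2 averaged -1.62 ± 0.23 with chaetocin and -0.78 ± 0.04 with TGF-β alone, a difference of -0.84.

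In the network collagens, Col4a1 to Col4a2 averaged 1.24 ± 0.03 with chaetocin and 0.88 ± 0.02 with TGF-β alone, a difference of 0.36. For Col4a5 to Col4a6 the mean was 3.003 ± 0.08 with chaetocin and 3.39 ± 0.05 with TGF-β alone, a difference of -0.38. Of the 9 pairs, Col8a1 to Col8a2 had the widest change, 0.80 ± 0.34 with chaetocin and 5.29 ± 0.12 with TGF-β alone, a difference of -4.49. A further pair of differences was called on counts and not on FPKM. Col5a1 to Col1a1 differed by 0.27 on counts and 0.19 on FPKM (adjusted p = 0.0735). Col6a1 to Col6a3 differed by -1.43 on counts and -1.06 on FPKM (adjusted p = 0.2). Of Col6a1 to Col6a2 the difference was -0.32. Both pairs outside the 9 were added after their values were seen. Col11a1 to Col11a2 averaged -2.39 ± 0.19 with chaetocin and 2.61 ± 0.10 with TGF-β alone, a difference of -5.00 (-4.50 on FPKM), which is wider than that of Col8a1 to Col8a2. Col4a3 to Col4a4 averaged 1.20 ± 0.03 with chaetocin and 1.07 ± 0.02 with TGF-β alone, and the difference of 0.13 was the smallest of all 11 pairs.

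**Figure D4:**
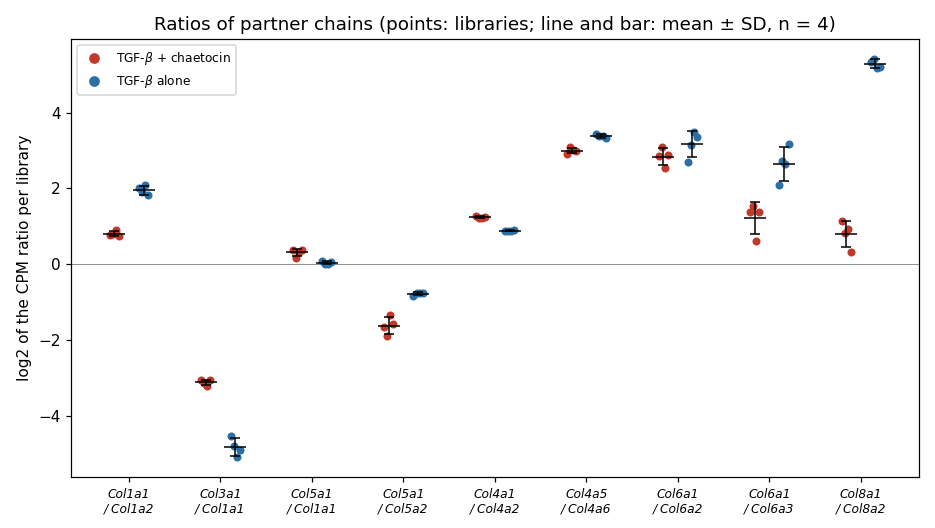
Log2 of the CPM ratio of 9 pairs of collagen chains in each library (points), with mean and SD (line and bar, n = 4 per group), red for TGF-β with chaetocin and blue for TGF-β alone. The groups stand apart in 8 pairs and overlap in Col6a1/Col6a2, and the widest gap of the 9 is Col8a1/Col8a2 with a difference of -4.49.

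Among the chaetocin libraries, replicate 3 tended to hold the lower chains at a higher level. It was the highest of the 4 in 14 of the 18 lower chains, and in 26.5% of all tested genes. The median excess over the mean of the other 3 libraries was 0.23 on the log2 scale in these chains and -0.000768 over all tested genes. Fibroblast markers did not move together in that library. Vim was 516.6 CPM there and 404.6 to 424.5 CPM in the other chaetocin libraries, and Fn1 and Fbn1 were also highest there. Dcn, Lum and Ddr2 were lowest there, with Ddr2 at 30.5 CPM against 34.2 to 37.4 CPM in the other chaetocin libraries. The macrophage markers C1qa, C1qb, C1qc, Ptprc, Csf1r, Cd68 and Itgam were highest there, and Adgre1 and Cd3e were not. C1qa was 21.6 CPM there and 16.4 to 17.7 CPM in the others. The pericyte marker Cspg4 was 30.3 CPM there and 16.3 to 19.8 CPM in the others. Abcc9 was also highest there, while Rgs5, Kcnj8 and Pdgfrb were not. All myofibroblast markers but Cnn1 were highest there. The part of these markers in the excess was not tested. Without replicate 3 the log2 fold changes were -2.12 for Col1a1, -1.84 for Col5a1, -1.29 for Col4a1, -1.66 for Col4a2 and -2.81 for Col8a1, and 18 chains were lower and 14 higher.

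Genes that make, process and sense collagen were described by lists, whose counts stand beside 38.8% lower and 42.0% higher over all tested genes, and 49.5% lower and 33.1% higher over those whose mean log2 CPM reached 3. Enzymes and chaperones of folding (19 tested) included 13 lower (68.4%) and 4 higher (21.1%) with chaetocin, with a median log2 fold change of -0.27. Plod2, a lysyl hydroxylase of telopeptides, had a log2 change of -1.78 ± 0.03 (SE, adjusted p = 7.8e-28), and the prolyl hydroxylase P3h1 of -1.24 ± 0.04 (SE, adjusted p = 4.6e-20). P4hb, the β subunit of prolyl 4-hydroxylase and a protein disulfide isomerase, rose, at 1.75 ± 0.02 (SE, adjusted p = 6.7e-29). Of the catalytic subunits that pair with it, P4ha2 was lower, at 44.4 ± 1.38 CPM with chaetocin and 73.2 ± 4.38 CPM with TGF-β alone (SD, n = 4 each), a log2 change of -0.72. P4ha1 had a log2 change of -0.12 (adjusted p = 0.000911), a call that was lost with total-count scaling (-0.0044, adjusted p = 0.897). P4ha3 was called higher at a low level, 0.684 to 0.959 CPM with chaetocin and 0.308 to 0.515 CPM with TGF-β alone, or 58 counts with chaetocin against 33 with TGF-β alone (ratio 2.12, 1.36 to 3.36), and passed the count filter only through the chaetocin libraries. Secretion genes had 7 of 8 lower (87.5%) and none higher, median -0.52, led by Creb3l1 (-1.45), a transcription factor that drives collagen secretion, and Mia3 (-0.81), the cargo receptor for bulky procollagen.

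Propeptide cleavage and cross-linking had 7 of 13 lower (53.8%) and 5 higher (38.5%), with a median of -0.73. A mean log2 CPM of at least 3 was reached by 7 of the 13, and 5 of those were lower and 2 higher. At that level 49.5% of all tested genes were lower and 33.1% higher. Of the 13, 3 passed the count filter only through the chaetocin libraries. Loxl2, a lysyl oxidase acting on type IV collagen, fell, at -2.16 ± 0.04 (SE, adjusted p = 4.0e-25). The procollagen protease Bmp1 fell too, at -1.65 ± 0.03 (SE, adjusted p = 5.0e-28). Loxl4 rose, at 1.91 ± 0.04 (SE, adjusted p = 2.4e-24), as did Pcolce, an enhancer of Bmp1, at 1.14 ± 0.07 (SE, adjusted p = 2.2e-14). All 4 tested collagenases and gelatinases were lower, median -2.18, with Mmp9 at -3.22 and the membrane protease Mmp14 at -1.82. Fibril organisers had 4 of 9 lower (44.4%) and 3 higher (33.3%), with the matrix glycoproteins Thbs1 at -1.43 and Fn1 at -1.14. Dcn, which codes for decorin, and Tnxb, a tenascin, were called higher but passed the count filter only through the chaetocin libraries. Dcn had 160 counts with chaetocin against 11 with TGF-β alone, a ratio of 17.6 (counting interval 9.55 to 35.9). Tnxb had 69 counts with chaetocin against 8 with TGF-β alone, a ratio of 10.4 (4.998 to 25.1), and its fitted log2 change was 3.27 with all libraries and 4.13 without TGF-β replicate 4.

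Collagen receptors had 5 of 9 lower (55.6%) and 2 higher (22.2%). The integrin chains Itga2 (-1.26) and Itgb1 (-0.52), which pair in a collagen receptor, were lower, and the receptor tyrosine kinase Ddr2 was higher (3.75), as was Ddr1 by a smaller amount (0.11). Regulators, a list of TGF-β ligands, receptors, SMADs and factors known for collagen genes, had 20 of 26 lower (76.9%) and 5 higher (19.2%), median -0.55, with Ccn2, a TGF-β target, at -1.10 and with the transcription factors Egr1 at 2.57 and Nfyc at 0.61. Partners of the basement membrane had 8 of 16 lower (50%) and 6 higher (37.5%), median -0.09. Among the 13 of them whose mean log2 CPM reached 3, 8 were lower and 4 higher. Hspg2, which codes for perlecan, fell, at -1.19 ± 0.02 (SE, adjusted p = 3.6e-26), and Itgb4, the hemidesmosome integrin, rose, at 0.80 ± 0.02 (SE, adjusted p = 1.3e-22). The laminin chain Lamb1 was at -0.73 and the cytolinker Plec at 0.37. Total-count scaling put the median of all tested genes at 0.14. Under it, the lower and higher counts were 11 and 4 for folding, 7 and 1 for secretion, 7 and 5 for cleavage and cross-linking, 3 and 3 for fibril organisers, 4 and 0 for collagenases, 4 and 2 for receptors, 18 and 5 for regulators, and 6 and 7 for basement membrane partners, whose median became 0.02.

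**Figure D5:**
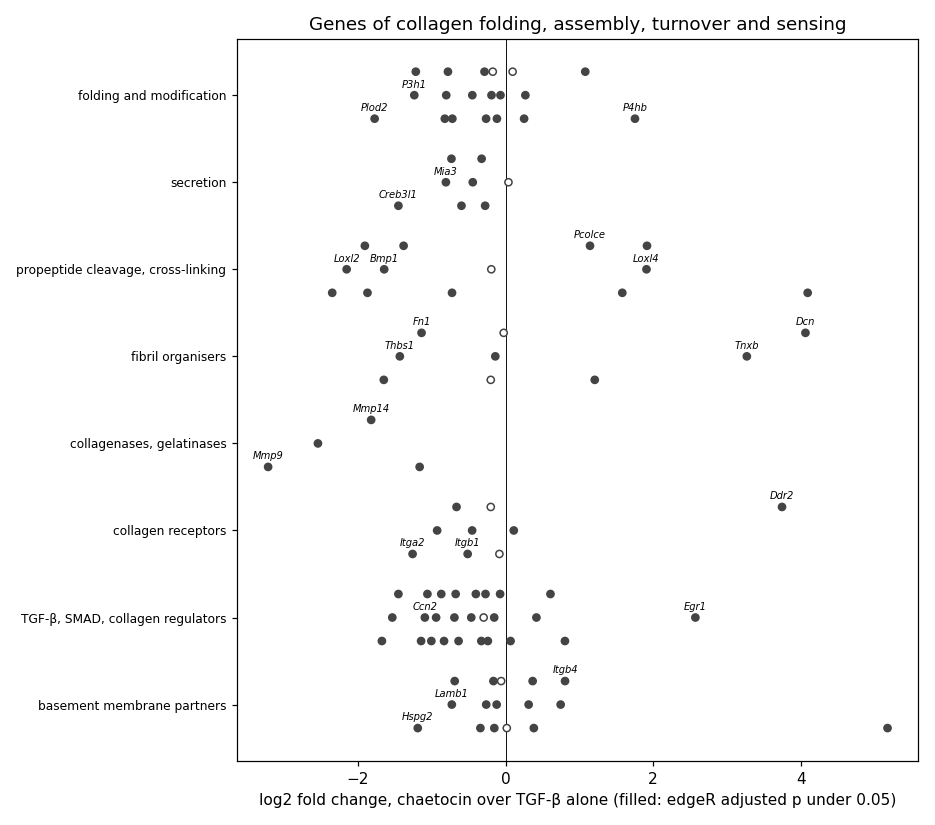
Log2 fold change of chaetocin over TGF-β alone for the tested genes of 8 lists of collagen folding, secretion, processing, turnover, sensing and regulation; each point is a gene, filled where the edgeR adjusted p was under 0.05, and some genes are named. All 4 tested collagenases and gelatinases lie left of 0, and 7 of 8 secretion genes were called lower.

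In the authors' deposited table, which gives a fold change and a false discovery rate from a test it does not name, 18 collagen chains had a rate under 0.05 and a negative log2 ratio and 15 a positive one. Its sign matched that of the count fit in 36 of the 39 tested chains and in all 32 called ones.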

How the data were processed

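RNA of 8 libraries of RFB cells was extracted with an RNeasy kit and sequenced after a SMARTER mRNA kit, per the labels' protocols. The submitters' processing notes name GRCm38 (mm10) as the build. Aligner, counting program, annotation release and strand setting: not given in the sources used here. The deposited table lists 22274 genes, each with a raw read count and an FPKM value (scaled to gene length and depth) for every library, per the file headers. The same table holds the authors' log2 ratio of group means and the authors' p-value and false discovery rate, all from a test that it does not name. No column of another sample was present (0 columns).

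Counts were tested with edgeR 4.0.16 in R 4.3.3 (filterByExpr, TMM scaling, quasi-likelihood F test, Benjamini-Hochberg adjustment over the 14608 tested genes, adjusted p under 0.05). Standard errors were obtained as the absolute log2 fold change over the root of F. Levels are TMM-scaled CPM within a gene and deposited FPKM between genes. Ratios of summed counts carry 95% exact counting intervals, and with 0 counts in a group the bound uses 3 counts over that group. Intervals cover counting error only. Gene positions came from GENCODE M21 on GRCm38, matched by Ensembl ID, and promoters from RefSeq on GRCm38.p6. Genes that share exon bases with others were listed: 13 chains, at most 6.07% of their exon bases.

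The collagen members, the companion and marker lists, and the rule for named genes were chosen with earlier results of these data known. The rule gives values per library for called chains whose mean log2 CPM reached 3 with a log2 fold change of at least 0.5 in size, for the tested fibrillar, basement membrane and beaded-filament chains and for uncalled chains, and, from each companion list, the 2 called genes with the smallest p in each direction. A gene that the rule also names is not reported here. Some genes outside it, such as Col8a2, P4ha1 and P4ha2, were named after their values were seen. The alternatives were other scalings and filters, DESeq2 1.42.0, voom and FPKM fits in limma 3.58.1, a replicate block, each library left out and a fold of at least 2.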

Additional observations from a re-analysis of the deposited data

Results flagged for a closer look

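Among 78 groups of 4 libraries, each a tested collagen chain in 1 treatment, 4 had a library far from the other 3. For continuous, normally spread values, chance alone gives such a flag in about 1 group of 20. That rate does not hold for groups with few counts, such as Col6a5 with TGF-β alone, or with 0 counts in all libraries. Col1a1 in TGF-β replicate 1 was 217.3 CPM, where the other TGF-β libraries had 237.0 to 240.3 CPM. Col2a1 in TGF-β replicate 3 was 1.14 CPM, where the others had 0.748 to 0.781 CPM. Col10a1 in chaetocin replicate 2 was 1.47 CPM, where the other chaetocin libraries had 0.701 to 0.769 CPM. Col6a5 in TGF-β replicate 3 was 0.0494 CPM, a count of 1, where the others had 0.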

How the results depend on the processing

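The counts of lower and higher collagen chains were 18 and 14, and DESeq2, DESeq2 size factors and limma-voom gave 18 and 14 as well. Total-count scaling gave 16 and 15, no filter 18 and 16, and a stricter filter (1 CPM or more in 4 libraries) 18 and 10. In the filtered FPKM fits 16 chains were lower and 4 higher with either pseudocount, the 4 including Col18a1, which the main fit did not call. These fits kept only genes over 1 FPKM in 4 libraries, a level that most of the 14 higher chains did not reach. With a fold of at least 2, 8 chains were lower, and of all tested genes 713 were lower and 2884 higher. Among chains whose mean log2 CPM was 3 or more, an alternative chosen after seeing the data, 0 were higher. The median log2 fold change of the chains, -0.15, was -0.65 on log2(FPKM + 1), -0.71 on log2(FPKM + 0.1) and 0.037 on log2(FPKM + 1) without a filter, fits that test other sets of genes. On FPKM the ratio difference was 0.19 for Col5a1/Col1a1 and -1.06 for Col6a1/Col6a3, and neither passed.

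With each library left out in turn, 17 to 18 chains were lower and 14 to 15 higher, 5538 to 5677 of all genes were lower and 6030 to 6276 higher, and the median was -0.19 to -0.09. The ratio differences ranged from -1.19 to -1.10 for Col1a1/Col1a2, 1.63 to 1.82 for Col3a1/Col1a1, 0.25 to 0.32 for Col5a1/Col1a1, -0.93 to -0.75 for Col5a1/Col5a2, 0.35 to 0.37 for Col4a1/Col4a2, -0.41 to -0.35 for Col4a5/Col4a6, -0.48 to -0.22 for Col6a1/Col6a2, -1.62 to -1.22 for Col6a1/Col6a3 and -4.60 to -4.33 for Col8a1/Col8a2.

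Of uncalled chains, the sign changed for Col18a1 without a filter (-0.0064), for Col14a1 in the FPKM fits (0.0317, 0.0504 and 0.0317) and with total-count scaling (0.00668), for Col15a1 in the unfiltered FPKM fit (0.15) and for Col9a3 without chaetocin replicate 1, with a range of -0.30 to 0.0148 over the libraries left out. For P4ha1, of the folding genes, the sign changed in the FPKM fits (0.00135, 0.00138 and 0.00135). The cause was not tested. Of the other comparisons of single chains with their main value, 644 kept direction and side of the threshold, 11 lost a call and 4 gained one.

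Same-numbered libraries of the 2 treatments correlated at -0.000534, 0.0318, -0.00219 and -0.0134, none over 0.1, so replicate numbers were not taken as pairs. A replicate block gave 18 lower and 14 higher chains, a median of -0.15 and, over all tested genes, 5643 lower and 6105 higher. In the ratios it left the differences as they were, and 0.125 is the smallest p it allows.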
